A study of Callithrix jacchus with 39 samples.

Results

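BECN2, FOXR1, UNC93A, LRRC31, OTC, MIOX and TLX1 are 7 of the 30811 gene IDs counted by RNA sequencing in embryonic stem cells (ESCs) and early embryos of the common marmoset, Callithrix jacchus. They were chosen by their measured levels, since an earlier pass over these counts had placed them near 0 in primed cells and far higher in naive cells of at least 1 line. Their naive and primed levels are therefore described here with no test, and the embryo libraries, whose levels were not the ground of the choice, carry the tests. Earlier results of these data were nevertheless known when the genes were chosen. The question asked of each gene was whether it was also present in the morula or the inner cell mass (ICM), or in naive culture alone.

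Primed ESCs resemble the epiblast after implantation, whereas naive ESCs resemble the pluripotent cells of the embryo before implantation. The ICM is the inner group of blastocyst cells from which epiblast and primitive endoderm arise. The 7 genes share no pathway. BECN2 encodes beclin 2, a relative of the autophagy protein beclin 1 that also takes part in degrading some G protein-coupled receptors. FOXR1 and TLX1 encode transcription factors of the forkhead and homeobox families. OTC encodes ornithine transcarbamylase, a mitochondrial enzyme of the urea cycle known from the liver, and MIOX encodes myo-inositol oxygenase, which opens the inositol ring and is known from the kidney. UNC93A encodes a membrane protein with many transmembrane segments, and LRRC31 a protein with leucine-rich repeats.

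The series compared 13 groups of 3 libraries each, 39 in all, made from poly(A)+ RNA. Among the ESCs, DSY127 and No.40 were primed. Cells titled DSY-c2 were sampled as primed Tg and as naive TgON, and cells titled N40 as primed Tg and as naive TgOFF. No label says what Tg, TgON or TgOFF stand for, so line and Tg state cannot be told apart between both naive groups. The embryo groups were the morula, the ICM of the early, unexpanded ("blastocyst"), expanded, hatching and hatched blastocyst, and the epiblast of the embryo after implantation. Nothing in the labels says whether libraries of 1 group came from separate cultures, animals or pooled embryos. Every p-value therefore weighed a difference only against how far libraries of a group lay apart, a spread that may be technical.

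Depth was 38.8 to 78.7 M counts per ESC library and 45.3 to 59 M counts per embryo library (M, 1e6). Levels are in CPM, counts per M counts after TMM scaling over all 39 libraries, and group values are mean ± SD over n = 3 libraries. A gene was called on in a group when all 3 libraries reached 1 CPM. A count of 0 allowed a level of up to 0.0369 to 0.0726 CPM, depending on the library (3 counts, counting error only). Summed over the 8 matched naive pluripotency markers, levels were 2840 to 4040 CPM in naive libraries, 1940 to 7470 in ICM libraries, 234 to 1320 in primed libraries and 88 to 99.9 in epiblast libraries, with ARGFX at 0 in the epiblast. Summed fibroblast markers (8 of 9 matched) were 67.7 to 446 CPM in naive and 316 to 2170 CPM in primed libraries. By gene they went both ways, with 2 of 8 rising and 4 falling in naive DSY-c2 cells and 4 rising and 2 falling in naive N40 cells. Summed primitive endoderm markers (11 of 13 matched) were 179 to 697 CPM in naive and 1130 to 3250 CPM in primed libraries, without overlap. These too went both ways by gene. Of 10 tested, 2 rose and 3 fell in naive DSY-c2 cells, and 3 rose and 3 fell in naive N40 cells. None of the markers of either list was at 0 in an ESC group, and their part in the naive and primed differences below was not tested. In a bulk library, fewer cells of a type and less RNA per cell cannot be told apart.

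All 7 genes were on in the morula, 6 were on in at least 1 ICM stage, and 1, OTC, was on in the epiblast. None was on in naive culture alone. Of all gene IDs, 32.6% were on in the morula, 37.6% in any ICM stage and 39.4% in the epiblast. The exception in the ICM was LRRC31, which reached 1 CPM in 1 of 15 ICM libraries. With a threshold of 5 CPM, 4 of the 7 were on in the morula and 0 in the epiblast, since LRRC31, OTC and TLX1 had morula libraries between 1.68 and 3.86 CPM.

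**Figure D1:**
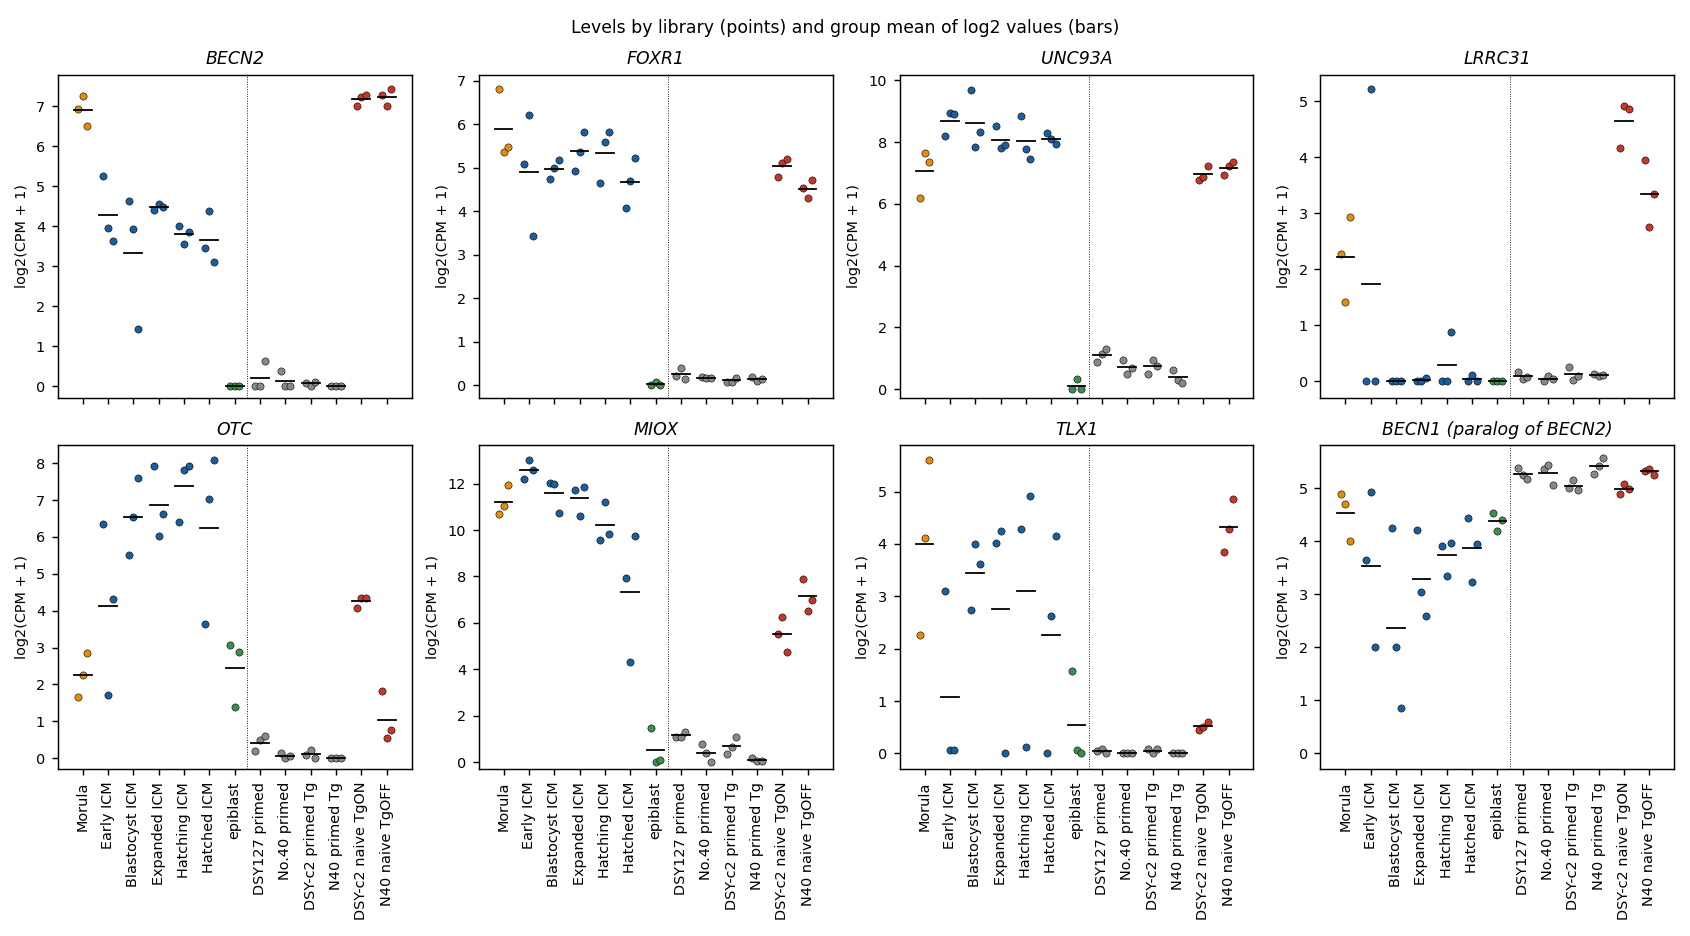
Level of each gene and of BECN1, the paralog of BECN2, as log2(CPM + 1) on the y axis, by group on the x axis; points are libraries (3 per group) and bars are means of the log2 values, with embryo groups left of the dotted line and ESC groups right of it. FOXR1 and UNC93A are high in morula, ICM and both naive groups, and BECN2 is high in morula and both naive groups and lower in the ICM. Each of them is near 0 in epiblast and primed cells, while BECN1 has counts in every library.

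BECN2 (ENSCJAG00000021914) was a morula gene that was lower in the ICM and not detected after implantation. Its libraries held 121, 153 and 90.2 CPM in the morula, and the 15 ICM libraries ran from 1.7 through a median of 14.6 to 37.4 CPM. All 3 epiblast libraries were at 0. Every morula library was above every ICM library. In cultured cells the naive libraries held 129, 150 and 154 CPM in DSY-c2 and 156, 127 and 171 CPM in N40, while 7 of the 12 primed libraries were at 0 and the highest reached 0.552 CPM. Replicates 1 and 2 of naive DSY-c2, which shared their lanes with the primed libraries of that line, held the 129 and 150 CPM. Both naive groups overlapped each other and the morula, at 144 ± 13.6, 152 ± 22.5 and 122 ± 31.5 CPM.

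Against the mean of the 5 ICM stages, BECN2 was higher in the morula by 2.96 ± 0.44 (SE) on the log2 scale (edgeR adjusted p = 0.000323). The ICM together had 11534 counts of BECN2 and the epiblast 0, so the epiblast was at least 813-fold lower (edgeR adjusted p = 3.25e-06). Among the ICM stages the group means went from 12.6 ± 6.58 CPM in the hatched to 21.4 ± 1.3 CPM in the expanded blastocyst, and the stages did not differ beyond their spread (edgeR adjusted p = 0.876). The 1.7 CPM library was replicate 3 of the unexpanded blastocyst, whose other libraries held 23.9 and 14.2 CPM.

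BECN1, which encodes beclin 1, is a core autophagy gene and was the 1 paralog of 5 looked for that could be matched by symbol. Its level in the 12 primed libraries ran from 30.4 to 46.6 CPM and in the 6 naive libraries from 28.8 to 40.3 CPM, so the ranges overlapped. The change from primed to naive was 0.04 ± 0.12 on the log2 scale in DSY-c2 (edgeR adjusted p = 0.794) and 0.04 ± 0.12 in N40 (edgeR adjusted p = 0.808). In the embryo BECN1 was at 23 ± 7.08 CPM in the morula, from 0.808 through a median of 11.6 to 29.6 CPM in the ICM libraries and at 19.9 ± 2.35 CPM in the epiblast, where BECN2 had no count. Its morula level differed from the ICM by 1.03 ± 0.63, the direction of BECN2, without passing the test (edgeR adjusted p = 0.275).

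FOXR1 (ENSCJAG00000013656) was on from the morula through every ICM stage and then close to absent. Its morula libraries held 111, 40.3 and 43.6 CPM, and the ICM libraries ran from 9.83 through a median of 33.1 to 73.4 CPM. In the epiblast 3 counts were found in 1 library and none in the others. Morula and ICM libraries overlapped, and no epiblast library came near either. Naive libraries held 26.9, 33.5 and 36.1 CPM in DSY-c2 and 22.1, 18.9 and 25.4 CPM in N40, while the 12 primed libraries ran from 0.0558 to 0.313 CPM. Naive levels therefore lay inside the range of the ICM libraries.

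FOXR1 was lower in the epiblast than in the ICM by a pooled ratio of 1800, with a 95% counting interval of 614 to 8710. On the log2 scale it fell by 10.63 ± 1.06 (edgeR adjusted p = 1.81e-06). Without epiblast replicate 2, the library with its 3 counts, the call held (edgeR adjusted p = 1.28e-05). No fold is given for that fit, because an epiblast without counts makes the fitted value depend on the prior. The morula and the ICM differed by 0.90 ± 0.49 (edgeR adjusted p = 0.214), and by 0.27 without morula replicate 1. The ICM stages had means of 25.8 ± 10.3 to 42.2 ± 16.2 CPM with an edgeR adjusted p of 0.964 between them.

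TLX1 (ENSCJAG00000017563), known as a homeobox gene needed for the spleen and activated in some T cell leukaemias, varied widely between libraries of a stage. The morula libraries held 3.8, 16.3 and 47.6 CPM. Of the 15 ICM libraries 10 were at or above 1 CPM, up to 29 CPM, and 2 were at 0. High and low libraries stood side by side within 4 of the 5 ICM stages. In the hatching blastocyst, for example, they held 18.5, 0.0919 and 29 CPM, and in the early blastocyst 7.6, 0.0454 and 0.0445 CPM. The unexpanded blastocyst was the stage in which all 3 libraries were on, at 5.72, 15 and 11.2 CPM.

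In culture TLX1 differed between the naive groups, in which line and Tg state cannot be told apart. Genes were chosen for high levels in naive cells of at least 1 line. A gap between the naive groups can therefore follow from the choice and is given as a description. The N40 naive libraries held 13.3, 18.5 and 28.1 CPM and the DSY-c2 naive libraries 0.368, 0.41 and 0.513 CPM. The naive groups did not overlap, and TLX1 was thus off in DSY-c2 naive cells by the 1 CPM rule. Primed libraries were at 0 in 8 of 12 cases and reached 0.066 CPM at most. The epiblast held 1.99, 0.0406 and 0 CPM, a log2 change of -3.59 ± 2.31 from the ICM that did not pass the test (edgeR adjusted p = 0.219), nor did it without epiblast replicate 1 (log2 change -8.44, adjusted p = 0.0808). Its morula and ICM levels differed by 1.49 ± 1.58 (edgeR adjusted p = 0.565), by 0.32 without morula replicate 3 and by 2.65 without early ICM replicate 1.

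UNC93A (ENSCJAG00000012850) had its highest levels in the ICM. Libraries held 71.6, 200 and 162 CPM in the morula and from 176 through a median of 292 to 835 CPM in the ICM. The epiblast had 12 counts, all in replicate 2. Morula replicate 2 lay inside the ICM range, and the other morula libraries lay below it. The naive libraries held 108, 115 and 150 CPM in DSY-c2 and 121, 150 and 162 CPM in N40, within the morula range and below every ICM library.

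The epiblast was lower than the ICM in UNC93A by a pooled ratio of 4280 (95% counting interval 2450 to 8290), or by -12.02 ± 1.05 on the log2 scale (edgeR adjusted p = 5.24e-07). Without epiblast replicate 2 the call held (edgeR adjusted p = 8.45e-07). The epiblast then had no count, so that fold depends on the prior and is not given. The morula stood -1.20 ± 0.55 from the ICM, which did not pass with edgeR (adjusted p = 0.138) and passed with DESeq2 (-1.16, adjusted p = 0.0444). In primed cells UNC93A was low but detected in every library. The DSY127 libraries held 0.819, 1.19 and 1.47 CPM, and the other primed groups had means of 0.308 ± 0.205 to 0.675 ± 0.262 CPM. Naive and primed libraries did not overlap, a gap that was the ground of the choice.

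LRRC31 (ENSCJAG00000002610) was on in the morula and in both naive groups and had few or no counts in most ICM libraries. Morula libraries held 3.86, 1.68 and 6.68 CPM. In the ICM 11 of 15 libraries were at 0, and early blastocyst replicate 2 alone, at 36.1 CPM, gave 1590 of the 1638 counts. All 3 epiblast libraries were at 0. The DSY-c2 naive libraries held 17, 29.2 and 28.1 CPM and the N40 naive libraries 14.4, 5.76 and 9.13 CPM, against 0.195 CPM in the highest primed library. Naive libraries of DSY-c2 were all above those of N40, a gap that can follow from the choice, as for TLX1. The morula libraries were below all but 1 of the naive libraries.

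LRRC31 was higher in the morula than in the mean of the ICM stages by edgeR (adjusted p = 0.0282), a call that was lost without morula replicate 1 (adjusted p = 0.0629) or morula replicate 3 (adjusted p = 0.0846). No fitted fold is given, because the unexpanded blastocyst had no count and the fitted value then depends on the prior. By pooled counts the morula was 1.78 times the ICM (95% counting interval 1.62 to 1.96), with early blastocyst replicate 2 supplying nearly the whole ICM sum. Against the epiblast the ICM difference did not pass with edgeR (adjusted p = 1) and passed with DESeq2 (adjusted p = 4.14e-09). In RefSeq the gene overlaps LRRIQ4, and whether reads were counted by strand is not given in the sources used here, so reads of both genes might not be told apart.

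OTC (ENSCJAG00000020777) had a different course from BECN2, low in the morula and high in the blastocyst. Morula libraries held 2.14, 3.78 and 6.24 CPM. The early blastocyst held 80.2, 2.27 and 18.8 CPM, and the expanded blastocyst 241, 64.8 and 98.3 CPM. From the unexpanded blastocyst on, every ICM library was above every morula library, the lowest being hatched replicate 1 at 11.5 CPM. The stage means were 33.7 ± 41.1 CPM in the early, 109 ± 75.1 in the unexpanded, 135 ± 93.5 in the expanded, 184 ± 87.4 in the hatching and 137 ± 129 CPM in the hatched blastocyst. They did not differ beyond the spread within stages (edgeR adjusted p = 0.632).

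OTC was lower in the morula than in the ICM by -4.67 ± 1.12 on the log2 scale (edgeR adjusted p = 0.00674). It was lower in the epiblast than in the ICM by -4.39 ± 1.10 (edgeR adjusted p = 0.00365), yet stayed on there at 7.33, 1.59 and 6.3 CPM. Summed trophectoderm markers (6 of 11 matched) were 20.3 to 29.7 CPM in morula libraries and 126 to 139 CPM in epiblast libraries. Both ranges lay inside that of the ICM libraries, 7.32 to 1520 CPM. By gene, against the ICM, 0 of 6 tested rose and 1 fell in the morula, and 2 rose and 1 fell in the epiblast. None of the 6 was at 0 in the morula or the epiblast, and their part in the OTC difference was not tested. Hatched ICM replicate 1 stood apart with 1520 CPM of these markers and 9030 CPM of primitive endoderm markers. With any 1 library left out, the OTC value stayed between -5.13 and -4.33 for the morula and between -4.68 and -3.89 for the epiblast. In culture OTC differed between the naive groups in the opposite direction to TLX1, with the same limits from the choice and from line and Tg state. DSY-c2 naive libraries held 15.9, 19.5 and 19.3 CPM and N40 naive libraries 2.51, 0.45 and 0.71 CPM, without overlap, while the N40 primed libraries were all at 0. OTC overlaps a pseudogene in RefSeq, so the limit on telling reads apart given for LRRC31 holds here too.

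MIOX (ENSCJAG00000019118) reached its highest levels in the early blastocyst and was lower at each later stage. Libraries held 1660, 2110 and 3930 CPM in the morula and 4660, 8180 and 6140 CPM in the early blastocyst. In the hatched blastocyst they held 247, 18.9 and 868 CPM. Early and hatched libraries did not overlap. Between them the means were 3310 ± 1380, 2860 ± 1120 and 1340 ± 881 CPM in the unexpanded, expanded and hatching blastocyst. The F test over the 5 ICM stages gave an edgeR p of 0.028 for MIOX and an adjusted p of 0.247, so the order of stages did not pass the adjustment over all genes.

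After implantation MIOX stood at 1.77, 0 and 0.0787 CPM. The epiblast differed from the ICM by -11.65 ± 1.60 on the log2 scale (edgeR adjusted p = 3.04e-05), or -15.46 without epiblast replicate 1. Between morula and ICM it differed by 0.40 ± 0.78 (edgeR adjusted p = 0.803), and the sign turned to -0.05 without morula replicate 3. The naive libraries were far below the morula, at 44.9, 75 and 25.8 CPM in DSY-c2 and 238, 91.1 and 127 CPM in N40. The N40 naive libraries overlapped the hatched ICM and no earlier embryo stage. They were all above the DSY-c2 naive libraries, a gap that can follow from the choice, as for TLX1. MIOX was on in 1 primed group, DSY127, at 1.15, 1.15 and 1.44 CPM.

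Set side by side, 3 of the 7 genes passed the test between morula and ICM, BECN2 and LRRC31 higher and OTC lower in the morula. Of the 16929 genes tested with edgeR in the embryo, 20.8% passed that test, 12.2% as higher and 8.65% as lower in the morula, and a count of 3 among 7 is not read as a difference from that share. Between epiblast and ICM, 5 of the 7 passed and all 5 were lower in the epiblast, namely BECN2, FOXR1, UNC93A, OTC and MIOX. In that comparison 44.8% of genes passed, 18.7% as lower and 26.1% as higher. The 7 were chosen near 0 in primed ESCs, which resemble this epiblast. The count of 5 is therefore not read as a difference from that share either. Summed fibroblast markers were 1590 to 1800 CPM in epiblast libraries (PRRX1 at 0) and 0 to 31.5 CPM in ICM libraries. Their part in these 5 differences was not tested. None of the 7 passed the test among the 5 ICM stages, which 0.295% of genes passed, 50 genes in all (2793 at an unadjusted edgeR p under 0.05, and 1150 with DESeq2). All 7 genes were kept by the filter on low counts.

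**Figure D2:**
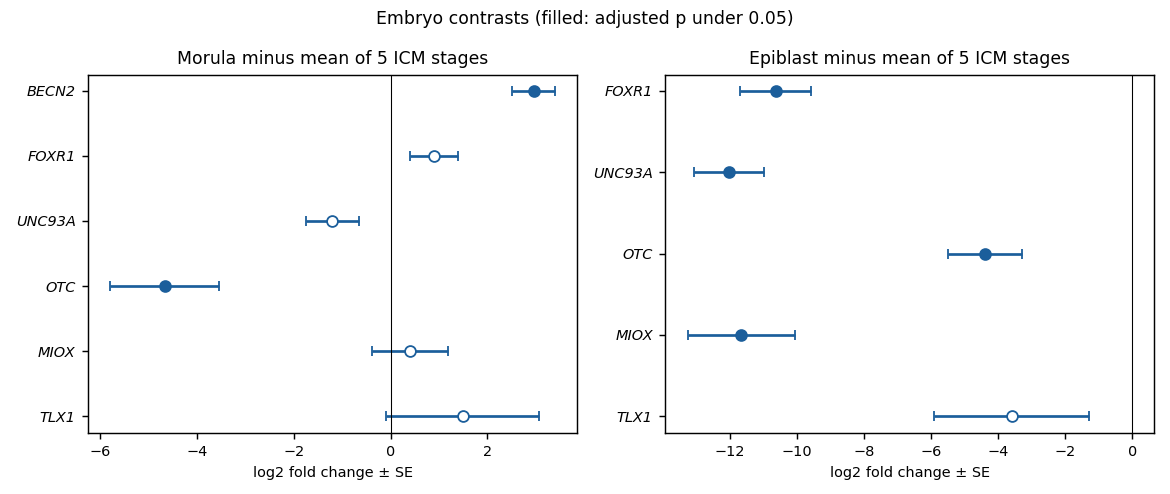
Log2 fold change ± SE (x axis) of the genes (y axis) in the morula (left panel) and the epiblast (right panel), each minus the mean of 5 ICM stages, n = 3 libraries per stage; filled points have an edgeR adjusted p under 0.05. LRRC31 is left out of both panels and BECN2 of the right panel because a group without counts makes the fitted value depend on the prior. BECN2 is higher and OTC lower in the morula, and the epiblast values of FOXR1, UNC93A and MIOX lie between -10.63 and -12.02.

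The pattern that brought these genes together was then counted over all gene IDs, as below 1 CPM in each primed Tg library and at least 10 CPM in each naive library of a line. It held for 21 gene IDs in DSY-c2, 47 in N40, 10 in both and 58 in either. BECN2, FOXR1 and UNC93A had it in both lines, LRRC31 and OTC in DSY-c2, and MIOX and TLX1 in N40. LRRC31 missed it in N40 through libraries at 5.76 and 9.13 CPM, and MIOX missed it in DSY-c2 through 1 primed library at 1.1 CPM. OTC in N40 and TLX1 in DSY-c2 missed it by a wide margin, as given above. The number of such gene IDs moved with the rule, to 30 with an off threshold of 0.5 CPM, 197 with 5 CPM and 88 when 2 of 3 libraries sufficed.

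Among these 58 gene IDs, 40 (69%) were on in the morula, 49 (84.5%) in any ICM stage and 19 (32.8%) in the epiblast. In all, 52 (89.7%) were on in the morula or an ICM stage, as were all 7 genes described here. The same held for 39% of all gene IDs. Being on in the embryo before implantation was thus shared by most gene IDs with the pattern and was not particular to the 7. The 58 had to reach 10 CPM in naive libraries, whereas 56.2% of all gene IDs were on in no embryo stage. Both shares are therefore not matched for level, and how much of the gap follows from the filter was not tested.

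**Figure D3:**
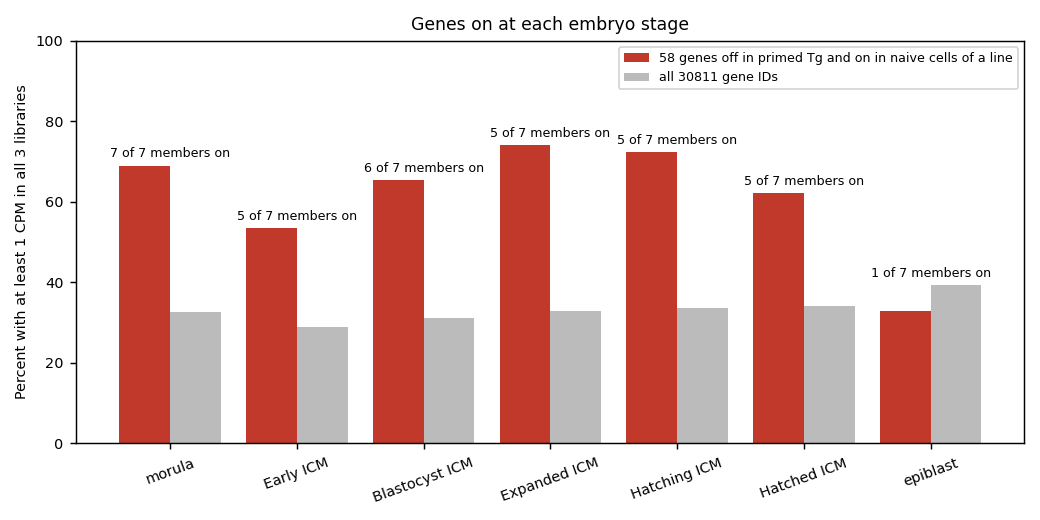
Percent of gene IDs on (at least 1 CPM in all 3 libraries, y axis) at each embryo stage (x axis), for the 58 gene IDs off in primed Tg and on in naive cells of a line (red bars) and for all gene IDs (grey bars); the text over the bars counts the 7 genes described here. The red bars lie above the grey ones from the morula (69% against 32.6%) to the hatched ICM, and below in the epiblast (32.8% against 39.4%). The 58 had to reach 10 CPM in naive libraries and all gene IDs did not, so red and grey bars are not matched for level.

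Likeness of course was measured as Pearson's r of log2(CPM + 1) over the 13 group means, which share libraries and depth, and is given as a description. FOXR1 and UNC93A were the closest pair of the set at r = 0.98, and each was among the 3 genes most like the other of 8844 compared. LRRC31 and OTC were the least alike, at r = 0.00. Those most like BECN2 were ORC2 (0.958), TRIM39 (0.953), TTC7A (0.943), MARS2 (0.933) and PTCD1 (0.933). ORC2, a subunit of the origin recognition complex, had group means of 62.7 CPM in the morula, 9.06 in the epiblast and 56.6 and 39 CPM in naive DSY-c2 and N40 cells. In primed groups ORC2 had means of 6.25 to 12 CPM, and BECN2 of 0 to 0.184 CPM.

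For FOXR1 the other close genes were RNH1 (0.988), a ribonuclease inhibitor, and UQCC1 (0.981), an assembly factor of respiratory complex III. UNC93A was closest to CRYL1 (0.980) and TMEM192 (0.979), and MIOX to UCK2 (0.986), CALCOCO2 (0.983) and DTNBP1 (0.982). CRYL1 encodes a crystallin-like dehydrogenase of the glucuronate pathway that MIOX feeds. OTC was closest to SETD9 (0.974), UQCRC1 (0.968) and ERP44 (0.965). LRRC31 and TLX1 had weaker matches, with TRAPPC10 (0.912), SYNRG (0.909) and DLGAP5 (0.903) for LRRC31 and RNF25 (0.913), DPF2 (0.907) and TRMO (0.904) for TLX1.

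Neighbours in the RefSeq order could be looked up for 6 of the 7 genes, since UNC93A was not in that table, and they did not share 1 direction in naive cells. Beside BECN2, PLD5 was lower in naive DSY-c2 cells (6.13 to 0.322 CPM, edgeR adjusted p = 0.000541) and EXO1 higher (88.5 to 188 CPM, adjusted p = 3.49e-09), and N40 gave the same directions. Beside OTC, RPGR fell by 1.30 and TSPAN7 fell by 3.75 on the log2 scale in DSY-c2 (edgeR adjusted p = 3.08e-05 and 8.62e-07). Beside MIOX both neighbours rose in both lines, SBF1 by 1.23 and 2.07 on the log2 scale and LMF2 from 9.68 to 36.1 CPM and from 5.14 to 58.2 CPM (highest edgeR adjusted p = 0.000435). Beside FOXR1, UPK2 fell by 2.53 in DSY-c2 and fell by 4.59 in N40, while CENATAC rose by 1.10 in DSY-c2 (edgeR adjusted p = 3.76e-05) and stood at 0.38 in N40 (adjusted p = 0.0607). LRRC34, next to LRRC31, and KAZALD1, next to TLX1, were not called in either line, and SAMD7 and LBX1, on their other sides, were not tested. Over all genes, 58.8% were called in DSY-c2 and 61% in N40.

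Genes that work with the 7 were listed by pathway and tested between naive and primed cells with edgeR, over 17957 genes. For the beclin complex and autophagy, 23 of 33 listed genes were matched. In DSY-c2 14 of them rose and 2 fell (60.9% rose, against 29.6% of all genes), and in N40 15 rose and 2 fell (65.2%, against 32.3%). The share that fell was 8.7% in each line, against 29.3% and 28.7% of all genes. The median log2 change was 0.48 and 0.56, beside 0.03 and 0.09 over all genes. Over all settings tried, 11 to 15 genes rose in each line. The median ranged from 0.34 (without naive replicate 2) to 0.61 in DSY-c2 and from 0.35 (without naive replicate 1) to 0.56 in N40. ATG2A, a lipid transfer protein of the growing autophagosome, rose from 32.7 ± 1.11 to 192 ± 35.8 CPM in DSY-c2 (adjusted p = 8.01e-10) and from 34.8 ± 5.44 to 263 ± 32 CPM in N40 (adjusted p = 1.29e-10). TFEB, a transcription factor of lysosomal genes, rose from 3.03 ± 0.923 to 11.2 ± 2.84 CPM and from 2.27 ± 0.752 to 11.6 ± 0.443 CPM (edgeR adjusted p = 9.07e-06 and 7.48e-07).

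Partners of beclin in the class III phosphatidylinositol 3-kinase complex were among the genes that rose, ATG14 from 17.4 ± 2.51 to 60.9 ± 11.4 CPM in DSY-c2 and from 19.8 ± 3.92 to 63.6 ± 6.05 CPM in N40. PIK3C3, the catalytic subunit, rose by 0.42 ± 0.10 in DSY-c2 (edgeR adjusted p = 0.00237) and stood at 0.12 ± 0.10 in N40 (adjusted p = 0.343). GPRASP1, the sorting protein through which beclin 2 is known to bind receptors, moved against BECN2. It fell from 53.8 ± 6.39 to 9.61 ± 1.4 CPM in DSY-c2 and from 76.1 ± 4.12 to 17.4 ± 0.963 CPM in N40 (edgeR adjusted p = 3.15e-10 and 9.27e-10). No naive library of GPRASP1 overlapped a primed one.

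Urea cycle and ornithine genes fell more often than they rose. Of 12 tested, 3 rose and 7 fell in each line (58.3% fell, against 29.3% of all genes in DSY-c2 and 28.7% in N40, and 25% rose, against 29.6% and 32.3%). The median log2 change was -0.85 in DSY-c2 and -1.46 in N40. In DSY-c2 the 3 rises became 1 without primed replicate 5 or without naive replicate 1. NAGS, which makes the activator of the cycle's first enzyme, fell from 13.5 ± 3.02 to 1.33 ± 0.509 CPM in DSY-c2 and from 31.7 ± 12.1 to 0.753 ± 0.146 CPM in N40. CPS1, that first enzyme, went from 106 counts in N40 primed libraries to 0 in N40 naive libraries (edgeR adjusted p = 2.64e-05) and from 1.27 ± 0.772 to 0.6 ± 0.368 CPM in DSY-c2 (adjusted p = 0.139). ASS1, which acts on citrulline, the product of OTC, fell from 1170 ± 78.7 to 133 ± 26.8 CPM in N40. OAT, which uses ornithine outside the cycle, rose by 0.44 ± 0.17 in DSY-c2 (edgeR adjusted p = 0.0325) and by 1.41 ± 0.17 in N40 (adjusted p = 2.16e-06).

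Inositol and glucuronate genes, the setting of MIOX, moved in both directions. Of 12 tested, 4 rose and 5 fell in DSY-c2 (33.3% and 41.7%, against 29.6% and 29.3% of all genes). In N40 5 rose and 5 fell (41.7% each, against 32.3% and 28.7%). The medians were -0.03 and -0.02 and stayed between -0.23 and -0.01 over the other settings. CRYL1, SORD and XYLB, enzymes downstream of glucuronate or of polyol use, rose in both lines. CRYL1 went from 10.5 ± 1.77 to 271 ± 44.7 CPM in DSY-c2 and from 8.03 ± 0.994 to 129 ± 12.2 CPM in N40 (edgeR adjusted p = 8.06e-11 and 1.03e-10). ISYNA1, which makes inositol phosphate from glucose phosphate, fell by 1.08 ± 0.12 in DSY-c2 and fell by 1.43 ± 0.13 in N40 (edgeR adjusted p = 1.82e-06 and 6.87e-08).

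**Figure D4:**
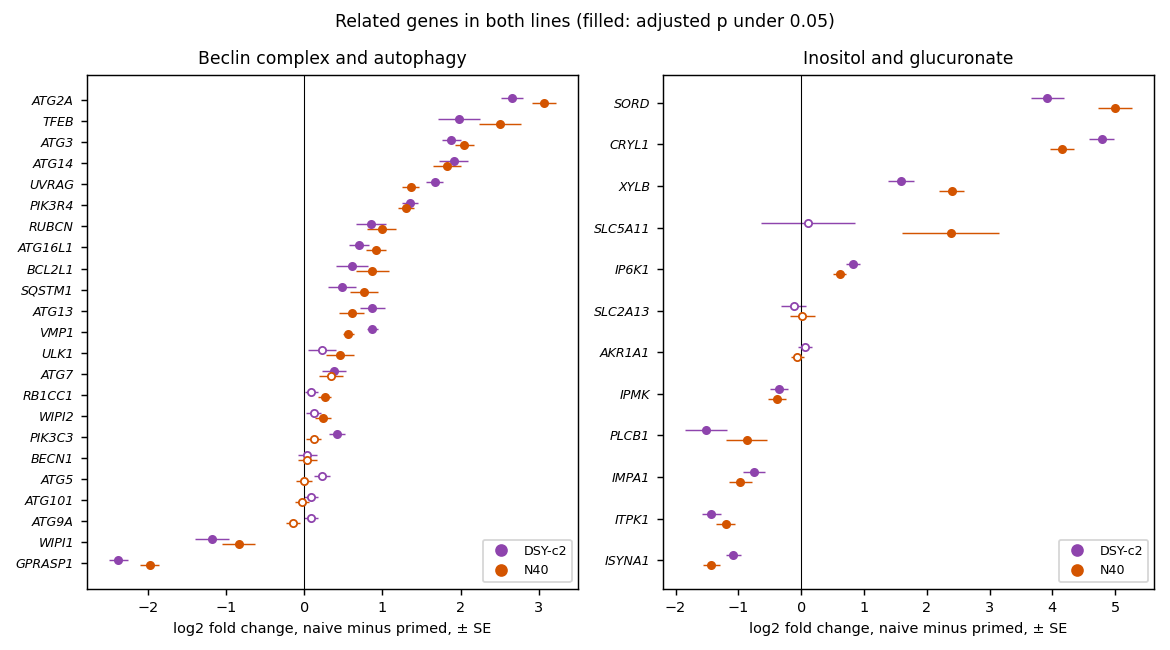
Log2 fold change ± SE (x axis), naive minus primed, of every tested gene (y axis) of the autophagy list (left panel, 23 genes) and of the inositol and glucuronate list (right panel, 12 genes) in DSY-c2 (purple) and N40 (orange), n = 3 libraries per group; filled points have an edgeR adjusted p under 0.05. ATG2A leads the rises on the left and GPRASP1 is the lowest, BECN1 lies at 0.04 in both lines, and SORD and CRYL1 stand highest on the right.

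Of the forkhead genes other than FOXR1, 8 of 20 tested rose and 6 fell in DSY-c2 (40% and 30%, against 29.6% and 29.3% of all genes). In N40 11 rose and 5 fell (55% and 25%, against 32.3% and 28.7%), and 3 fell without naive replicate 3. The list's median in DSY-c2, 0.10, ranged from -0.11 to 0.24 over the other settings tried and so had no stable sign. FOXP1 rose from 5.22 ± 0.579 to 14.3 ± 1.98 CPM in DSY-c2 and from 3.01 ± 0.481 to 16.7 ± 3.63 CPM in N40, and FOXN4 fell by 6.04 ± 0.86 and fell by 3.07 ± 0.67 on the log2 scale (edgeR adjusted p = 1.73e-05 and 0.000782). Among 10 tested homeobox genes of the class of TLX1, 3 rose and 4 fell in DSY-c2 (30% and 40%, against 29.6% and 29.3%). In N40 5 rose and 1 fell (50% and 10%, against 32.3% and 28.7%), and 2 fell without primed replicate 2. DLX3 reached similar naive levels in both lines, 12.6 ± 4.32 and 12 ± 2.24 CPM, unlike TLX1.

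Markers of liver and kidney tubule, the tissues in which OTC and MIOX are best known, did not rise as a group. Of 20 tested, 6 rose and 6 fell in DSY-c2 (30% each, against 29.6% and 29.3% of all genes), and 6 rose and 5 fell in N40 (30% and 25%, against 32.3% and 28.7%). The median was -0.27 in DSY-c2, -0.55 without naive replicate 3 and -0.44 without primed replicate 5, which also left 4 rises and 3 falls. In N40 it was -0.33, -0.64 without naive replicate 1 and -0.55 without primed replicate 2. SLC3A1, a subunit of the kidney cystine transporter, rose from 0.033 ± 0.0085 to 17.3 ± 5.12 CPM in DSY-c2. In N40 it rose from 0.0126 ± 0.0219 to 2.03 ± 1.57 CPM. SLC47A1, a kidney and liver cation exporter, rose from 0.48 ± 0.334 to 54.6 ± 16.3 CPM in N40. In DSY-c2 it rose from 0.789 ± 0.252 to 13 ± 2.27 CPM. Both belong to the 58 gene IDs with the off-to-on pattern, SLC3A1 through DSY-c2 and SLC47A1 through N40. MME, a membrane peptidase of the tubule, fell by 4.31 ± 0.60 and fell by 4.41 ± 0.59 (edgeR adjusted p = 2.79e-05 and 1.58e-05). Over the 6 pathway and family lists together, 70.1% of 97 genes were called in DSY-c2, against 58.8% of all genes, and 72.2% in N40, against 61%.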

How the data were processed

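Poly(A)+ RNA of 18 ESC and 21 embryo libraries was sequenced with a stranded kit, per the labels. The submitters' processing notes name Trim Galore 0.4.0 (trimming), STAR 2.5.3a (alignment) and featureCounts 1.5.2 (counting). For genome build, annotation and strand setting, nothing is given in the sources used here. Deposited values are raw counts per gene, with 2 run columns per library, and these were summed because runs of a library differed far less (chi-square per gene of at most 2.003) than libraries of a group (at least 28.1). Another 6 columns of no sample in the labels were not used. Even numbers made up 64.1% of counts from 1 to 49 and 50.7% of high counts, so mates may have been counted separately and counting intervals are optimistic. These intervals (95%, exact binomial) and floors (3 counts) cover counting error only. Symbols came from a reference gene table by gene ID (12660 IDs, 41.1%) and gene order from RefSeq. FOXR2, UNC93B1, TLX2 and TLX3 were not matched.

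Groups came from the titles. Separate fits of the ESC and the embryo libraries used edgeR 4.0.16 (R 4.3.3; filterByExpr, TMM, robust quasi-likelihood fit, group as the only term), with Benjamini-Hochberg adjustment over all genes tested and calls at an adjusted p under 0.05. The script was tested on simulated data. Separate TMM scaling of both sets would move log2 CPM by -0.16 in ESCs and by 0.11 in embryos. Column names put the DSY-c2 libraries on lanes 6 and 7, except naive replicate 3, which with the other libraries but No.40 replicate 1 was on lanes 1 and 2. Genes named were the 7 members, matched paralogs, up to 3 called genes each way per list and, per member, the 3 most similar genes (5 for BECN2) among genes reaching 10 CPM in a group; not every such gene is printed. The members and the lists were chosen with earlier results of these data known. Alternatives were DESeq2 1.42.0 as test or size factors, no filter, halved counts, only the groups compared, each library left out, a replicate block, other CPM scalings and other thresholds of on.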

Additional observations from a re-analysis of the deposited data

How the results depend on the processing

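The test among ICM stages was the least stable count. Its 50 calls became 93 with no filter on low counts, 119 with halved counts, 1150 with DESeq2, 5 with only the groups compared and 11 with the replicate block, and 12 to 171 with 1 library left out. Among the single libraries, it moved by over 1.5 times without early ICM 1 (107), 2 (30) or 3 (29), unexpanded ICM 1 (117) or 3 (171), hatching ICM 2 (22) or 3 (25) and hatched ICM 1 (12), 2 (15) or 3 (106). Morula against ICM gave 2249 to 3896 calls with 1 library left out, against 3526, and was lowest without morula replicates 1 (2249) and 2 (2271). With DESeq2 45.6% of its calls were higher in the morula, against 58.5%. Epiblast against ICM gave 6032 to 8169 calls with 1 library left out, against 7579. The number of genes on was 4 in the morula and 0 in the epiblast at 5 CPM, and that of off-to-on gene IDs was 30 at 0.5 CPM, 197 at 5 CPM, 88 with 2 of 3 libraries and 58 to 65 with 1 library left out. MIOX between morula and ICM reversed to -0.05 without morula replicate 3, its lowest value with 1 library left out (highest 0.70). The calls of LRRC31 and UNC93A that changed are given with these genes, and the cause was not tested for any of these changes. Same-numbered libraries did not deviate together (r of -0.21 to 0.17 in 63 embryo pairs and -0.18 to -0.06 in 3 N40 pairs). No pairing by replicate number was seen, though 3 pairs are too few to exclude it in N40. The replicate block gave 3178 calls for morula against ICM, 7455 for epiblast against ICM and 8776 for N40, with 56 list genes called in N40, and changed no call of the 7 genes in the embryo. DSY-c2 shares 1 number, which allows no block.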

Other observations

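Of the 58 off-to-on gene IDs, 4 were on in no embryo stage, and 2 of these have a symbol, which were picked out after their values were seen. DSCAML1, a neuronal cell adhesion gene, had the pattern in DSY-c2 with a mean of 8.04 CPM over both naive lines. ELAVL4, a neuronal RNA-binding protein gene, had it in N40 with a mean of 10.8 CPM. COL3A1 and SALL3 had it in N40 only, with means of 48.8 and 20.1 CPM over both naive lines. Both were on in the epiblast and in neither the morula nor any ICM stage. COL3A1 is also a member of the fibroblast marker list.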
